A study of Mus musculus with 6 samples.

Results

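Fatty acids reach fat cells through a short chain of proteins, and the 10 genes described here encode the main parts of that chain. The enzyme lipoprotein lipase (*Lpl*) and its endothelial carrier *Gpihbp1* act in the capillary, the receptor *Cd36* and the fatty acid transport proteins *Slc27a1* to *Slc27a4* act at or near the cell membrane, and the fatty acid binding proteins *Fabp3* to *Fabp5* act in the cytoplasm. They were taken by gene symbol from the 55491 genes in the deposited table, with earlier results of these data known, and all 10 had counts in each of the 6 libraries. Bulk RNA-seq was performed on inguinal white adipose tissue (IWAT), the subcutaneous fat depot of the groin, from male mice on regular chow at 4 weeks of age. There were 3 *Ebf2+/+* mice and 3 *Ebf2E165X/+* mice with 1 library per mouse. *Ebf2E165X/+* mice carry, on 1 allele, a premature stop codon knocked into the gene for EBF2, a transcription factor of adipocyte precursors and of brown and beige fat cells. The allele was made by CRISPR/Cas9 in zygotes of B6SJLF1 hybrids, founders were bred to C57BL/6J, and the labels name C57BL/6J as the strain of all 6 mice. It is present in every cell of the animal, so that the genotypes differ in more than the adipocyte. The labels name neither litter nor batch.

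Total counts per library ran from 106820505 to 135039488. Levels are given as CPM, that is, counts relative to a library size scaled by edgeR's TMM factor. The level of *Ebf2* was 38.3, 41.3, and 37.2 CPM in the *Ebf2+/+* mice and 22.8, 22.9, and 21.1 CPM in the *Ebf2E165X/+* mice, so that all 6 libraries lay on the side of their label. All 10 adipocyte markers (among them *Adipoq*, *Plin1*, and *Car3*) were detected in every library, with summed levels of 16103 to 22219 CPM. A single library stood apart. In the third *Ebf2E165X/+* mouse, 10 skeletal muscle markers summed to 40802 CPM, while they summed to 691 to 7067 CPM in the other libraries. Fold changes of the 10 genes are therefore given both with and without that mouse.

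Triglycerides travel in the blood inside lipoproteins and are too large to enter cells. Lipoprotein lipase, made by adipocytes and moved to the capillary lumen by GPIHBP1, frees their fatty acids, CD36 and the fatty acid transport proteins aid the entry of these fatty acids into the cell and their coupling to coenzyme A, and the binding proteins carry them through the cytoplasm. White fat stores the fatty acids as triglyceride, while brown and beige fat also burns them for heat.

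In the *Ebf2+/+* mice the 10 genes covered a wide span of levels. Genes differ in length, so they were ordered by CPM per kilobase of annotated exon, a scale that would understate long genes if, as the paper's supplement states, the libraries came from the 3′ ends of transcripts. *Fabp4*, the major binding protein of adipocytes, was highest with 1457 ± 239 CPM per kilobase (SD, n = 3 mice). *Cd36* and *Lpl* followed with 686 ± 50.4 and 623 ± 29.9 CPM per kilobase, and their ranges overlapped. *Slc27a1* (70.7 ± 6.26) and *Fabp5* (66.1 ± 30.03) formed the next pair with overlapping ranges. Below them, the ranges of *Gpihbp1* (25.7 ± 1.23) and *Fabp3* (14.6 ± 10.6) overlapped, as did those of *Fabp3* and *Slc27a4* (9.39 ± 1.47). *Slc27a3* (2.74 ± 0.365) and *Slc27a2* (1.17 ± 0.687) were lowest on that scale, and their ranges did not overlap each other or those above. The order at the top depends on the annotated lengths, which count every annotated exon of a gene. In CPM, *Lpl* (6532 ± 314) was about level with *Fabp4* (6541 ± 1074) and above *Cd36* (2463 ± 181). The 10 genes together accounted for 1.65%, 1.69%, and 1.47% of the counts assigned to genes in *Ebf2+/+* mice. In *Ebf2E165X/+* mice they accounted for 1.68%, 1.44%, and 0.949% of these counts. The groups overlapped, and the difference was within the spread between mice (two-sided exact permutation test, *P* = 0.4, adjusted *P* = 0.6 over 3 such shares). With 3 mice per genotype this test cannot give a *P* below 0.1.

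**Figure D1:**
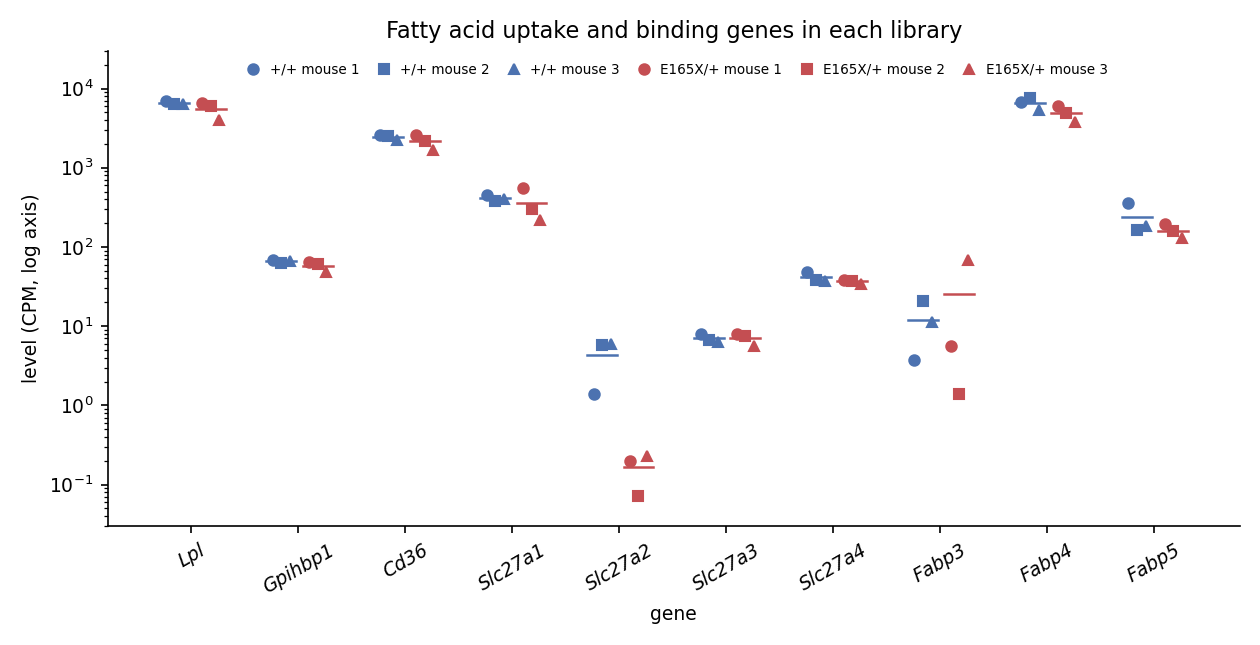
Level of each of the 10 genes (CPM, logarithmic axis) in each library, with blue symbols for the 3 *Ebf2+/+* mice, red symbols for the 3 *Ebf2E165X/+* mice, and a short line at each group mean. *Slc27a2* is the gene whose blue and red symbols do not overlap, and the third *Ebf2E165X/+* mouse (red triangle) lies lowest of its group for 8 genes and highest for *Slc27a2* and *Fabp3*.

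The comparison of genotypes asked whether the supply, uptake, and binding of fatty acids are transcribed at other levels in *Ebf2E165X/+* IWAT. One gene stood out. *Slc27a2* had 4.38 ± 2.58 CPM in *Ebf2+/+* and 0.166 ± 0.0823 CPM in *Ebf2E165X/+* mice (SD, n = 3 mice), a difference that passed in DESeq2 and not in edgeR, while the other 9 genes passed in neither tool. With edgeR's quasi-likelihood test, an adjusted *P* under 0.05 (Benjamini-Hochberg over all genes tested), and a linear fold change above 1.5, 0 of the 10 genes were called, beside 0.00918% of the 32664 genes tested. With DESeq2 and the same thresholds 1 of the 10, *Slc27a2*, was called, beside 0.3% of genes. That share is of all 32664 genes, including those that DESeq2 left without an adjusted *P* and could not call. An unadjusted *P* under 0.05 from edgeR was reached in the lower direction by *Slc27a2* alone, beside 3.09% of genes, and in the higher direction by 0 of the 10, beside 1.68%. Without the third *Ebf2E165X/+* mouse edgeR again called 0 of the 10, beside 0.0343% of genes. The same gene was the only 1 of the 10 whose *Ebf2E165X/+* values all lay below the *Ebf2+/+* values, which was the case for 5.75% of genes, and 0 of the 10 lay all above, which was the case for 5.09%. Log2 fold changes of *Ebf2E165X/+* against *Ebf2+/+* mice were negative for 8 of the 10 genes, beside 47.9% of all genes and 43% of genes with a mean of at least 1 CPM. Their median was −0.20, beside 0.014 over all genes tested, and −0.099 without the third *Ebf2E165X/+* mouse, when 8 of the 10 were again negative (51.1% of all genes). Negative values were as common among 10 adipocyte markers (9 of 10, median −0.27) and 10 endothelial markers (9 of 10, median −0.13). Without the third *Ebf2E165X/+* mouse 7 of 10 were negative in each list, with medians of −0.13 and −0.079.

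**Figure D2:**
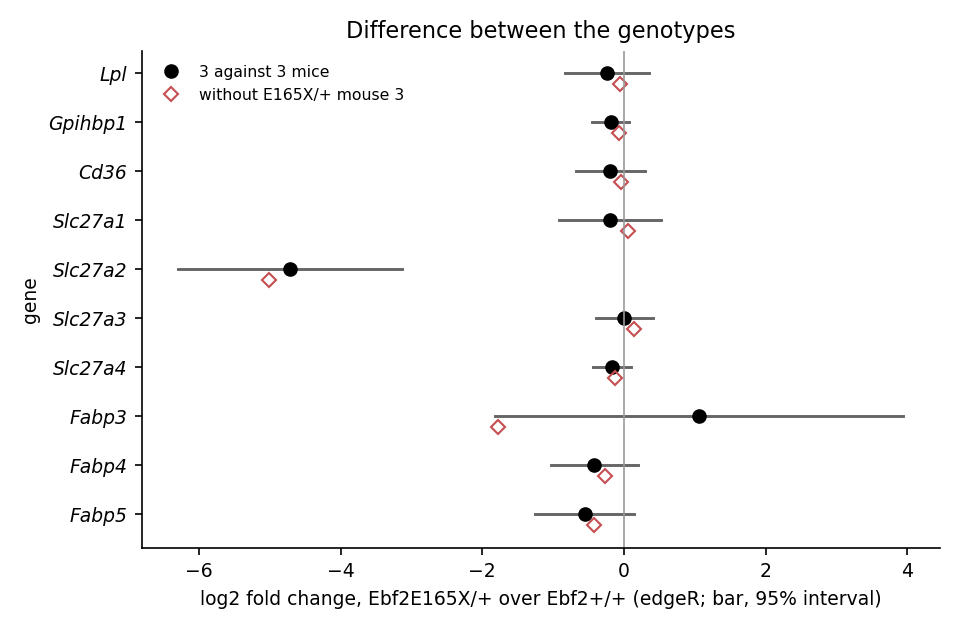
Log2 fold change of *Ebf2E165X/+* over *Ebf2+/+* mice for the 10 genes, with the edgeR estimate (black point), its 95% interval (bar), and the estimate without the third *Ebf2E165X/+* mouse (open diamond). The interval of *Slc27a2* (−6.30 to −3.13) lies apart from 0, those of the other 9 genes include 0, and the diamonds of *Fabp3* and *Slc27a1* lie on the other side of 0 from their points.

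Of the capillary pair, neither gene passed the test. *Lpl* (ENSMUSG00000015568, GRCm38 chr8:68880491-68907448, plus strand) hydrolyses lipoprotein triglycerides. Its level was 6894, 6346, and 6355 CPM in *Ebf2+/+* mice and 6617, 5963, and 4046 CPM in *Ebf2E165X/+* mice. The values of the first and second *Ebf2E165X/+* mice were close to the *Ebf2+/+* range, and that of the third was the lowest of all 6. This is a log2 fold change of −0.24 (SE 0.25, 95% interval −0.83 to 0.35, adjusted *P* = 0.794 from edgeR). It was −0.054 without the third *Ebf2E165X/+* mouse and −0.38 without the first. *Gpihbp1* (ENSMUSG00000022579, chr15:75596628-75599481, plus strand) encodes the protein of capillary endothelium that binds lipoprotein lipase and carries it to the lumen. Its level was 68.9, 62.6, and 65.7 CPM in *Ebf2+/+* mice and 63.8, 61.1, and 48.0 CPM in *Ebf2E165X/+* mice. As with *Lpl*, the third *Ebf2E165X/+* mouse was lowest and the groups overlapped. In log2 terms the difference was −0.19 (SE 0.11, 95% interval −0.45 to 0.073, adjusted *P* = 0.783 from edgeR) with all mice and −0.073 without that mouse.

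Among the 5 membrane genes, *Cd36*, *Slc27a1*, and *Slc27a4* kept overlapping groups, *Slc27a3* showed almost no difference in means, and *Slc27a2* separated. *Cd36* (ENSMUSG00000002944, chr5:17781690-17888801, minus strand) encodes a scavenger receptor that binds long-chain fatty acids at the cell surface. It was measured at 2597, 2536, and 2257 CPM in *Ebf2+/+* mice and 2616, 2185, and 1665 CPM in *Ebf2E165X/+* mice. The highest and the lowest value of all 6 were both from *Ebf2E165X/+* mice. Its log2 fold change was −0.19 (SE 0.21, 95% interval −0.68 to 0.29, adjusted *P* = 0.795 from edgeR). It was −0.037 without the third *Ebf2E165X/+* mouse and −0.36 without the first.

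*Slc27a1* (ENSMUSG00000031808, chr8:71568882-71587302, plus strand) encodes FATP1, the fatty acid transport protein of adipocytes and muscle. It took 84.5% to 92.3% of the counts of *Slc27a1* to *Slc27a4* in every library. Its level was 453, 383, and 400 CPM in *Ebf2+/+* mice and 557, 302, and 219 CPM in *Ebf2E165X/+* mice. The 3 *Ebf2E165X/+* values spread over a 2.54-fold range around the *Ebf2+/+* values, which spread over a 1.18-fold range. The log2 fold change of −0.20 (SE 0.31, 95% interval −0.92 to 0.52, adjusted *P* = 0.877 from edgeR) changed sign to 0.060 without the third mouse. *Slc27a4* (ENSMUSG00000059316, chr2:29802634-29817522, plus strand) encodes FATP4, which activates long-chain fatty acids and is best known from intestine and skin. It was measured at 48.9, 37.9, and 37.5 CPM in *Ebf2+/+* mice and 38.4, 37.6, and 34.3 CPM in *Ebf2E165X/+* mice. The groups overlapped, with the first *Ebf2+/+* mouse above the other 5. The log2 fold change was −0.17 (SE 0.12, 95% interval −0.44 to 0.096, adjusted *P* = 0.783 from edgeR), −0.12 without the third *Ebf2E165X/+* mouse, and −0.051 without the first *Ebf2+/+* mouse. *Slc27a3* (ENSMUSG00000027932, chr3:90385239-90389938, minus strand) encodes a family member with acyl-CoA synthetase activity. Its values of 8.07, 6.77, and 6.25 CPM in *Ebf2+/+* mice and 7.93, 7.58, and 5.68 CPM in *Ebf2E165X/+* mice were interleaved. With a log2 fold change of 0.0072 (SE 0.17, 95% interval −0.40 to 0.41, adjusted *P* = 0.995 from edgeR), its sign was not stable between fits, and it was 0.14 without the third *Ebf2E165X/+* mouse.

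*Slc27a2* (ENSMUSG00000027359, chr2:126552407-126588243, plus strand) encodes FATP2, which moves and activates very long-chain fatty acids and is best known from liver and kidney. Its counts were 169, 605, and 743 for *Ebf2+/+* and 23, 9, and 29 for *Ebf2E165X/+* mice. These are 1.41, 5.74, and 6.00 CPM against 0.199, 0.0721, and 0.226 CPM. The lowest *Ebf2+/+* mouse was still well above the highest *Ebf2E165X/+* mouse, although the first *Ebf2+/+* mouse had less than the other 2. The edgeR estimate corresponds to a 26.3-fold lower level in *Ebf2E165X/+* mice, with a 95% interval of −6.30 to −3.13 on the log2 scale. Its unadjusted *P* of 0.000158 became 0.229 after adjustment in edgeR, whereas DESeq2 gave an adjusted *P* of 3.72e-07 for nearly the same log2 fold change (−4.73, SE 0.76). Over all alternatives the adjusted *P* ran from 3.72e-07 to 0.882, and it was under 0.05 with DESeq2 alone. When single mice were left out, the edgeR log2 fold change stayed between −5.15 and −4.36 and the adjusted *P* between 0.150 and 0.775. Without the third *Ebf2E165X/+* mouse, the one rich in muscle markers, these values were −5.01 and 0.181. The share of *Slc27a2* in the counts of the 4 *Slc27a* genes does not depend on library size. It was 0.275%, 1.32%, and 1.33% in *Ebf2+/+* mice and 0.0329%, 0.0207%, and 0.0873% in *Ebf2E165X/+* mice, again without overlap. The exact permutation test gave this difference its smallest possible *P* of 0.1 (adjusted *P* = 0.8 over 8 shares and ratios). An annotated antisense RNA, *Gm26697*, overlaps 419 exonic bases of *Slc27a2* on the opposite strand. It is not analysed here, and reads of the 2 genes can be told apart only if strand was used in counting, which is not given in the sources used here.

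Hepatocytes are the cells in which *Slc27a2* is usually most abundant. In these libraries 6 hepatocyte markers summed to 18.2, 11.4, and 9.52 CPM in *Ebf2+/+* mice and 10.2, 12.4, and 10.7 CPM in *Ebf2E165X/+* mice. Almost all of this was *Alb*, at 8.77 to 17.2 CPM, while *Ttr* and *Fga* were each at 0 in at least 1 library. The groups overlapped, and the part of liver cells in the *Slc27a2* values was not tested. The 3 genes whose levels over the 6 libraries were most like those of *Slc27a2* were *Cpn2*, *Ucp1*, and *Cidea*, by the root mean square difference of log2 CPM after centring on the *Ebf2+/+* mean (0.99, 1.04, and 1.12) among 14965 genes with a mean of at least 1 CPM. *Cpn2* encodes the regulatory subunit of carboxypeptidase N, *Ucp1* the uncoupling protein of brown and beige mitochondria, and *Cidea* a lipid droplet protein of the same cells. *Cpn2* was measured at 4.54, 5.15, and 5.74 CPM in *Ebf2+/+* mice and 0.398, 0.280, and 0.882 CPM in *Ebf2E165X/+* mice. *Ucp1* was measured at 10.8, 21.3, and 33.0 CPM and at 0.259, 0.264, and 0.617 CPM. These 3 genes were chosen for their likeness to *Slc27a2* over the same libraries, so that what they share with it is a description. The 8 brown and beige markers that include *Ucp1* and *Cidea* summed to 167, 223, and 222 CPM in *Ebf2+/+* mice and 36.1, 43.6, and 80.6 CPM in *Ebf2E165X/+* mice. Of the 80.6 CPM in the third *Ebf2E165X/+* mouse, which is rich in muscle markers, *Cox8b* made up 32.8 and *Cox7a1* 21.7 CPM. They were at 13.6 and 4.14 CPM in the first *Ebf2E165X/+* mouse and at 17.7 and 2.46 CPM in the second. All 8 markers had negative log2 fold changes (47.9% of all genes), 1 of them was called by edgeR (0.00918%) and 4 by DESeq2 (0.3%). The paper had already reported *Ucp1* and *Cidea*, among others, as lower in these same libraries. The counts of this list are therefore a description and not an independent result. In bulk tissue, fewer cells of a type and less RNA per cell cannot be told apart, and the part of brown and beige cells in the *Slc27a2* difference was not tested. The nearest of the other 9 genes to the *Slc27a2* pattern was *Fabp4*, at rank 407.

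**Figure D3:**
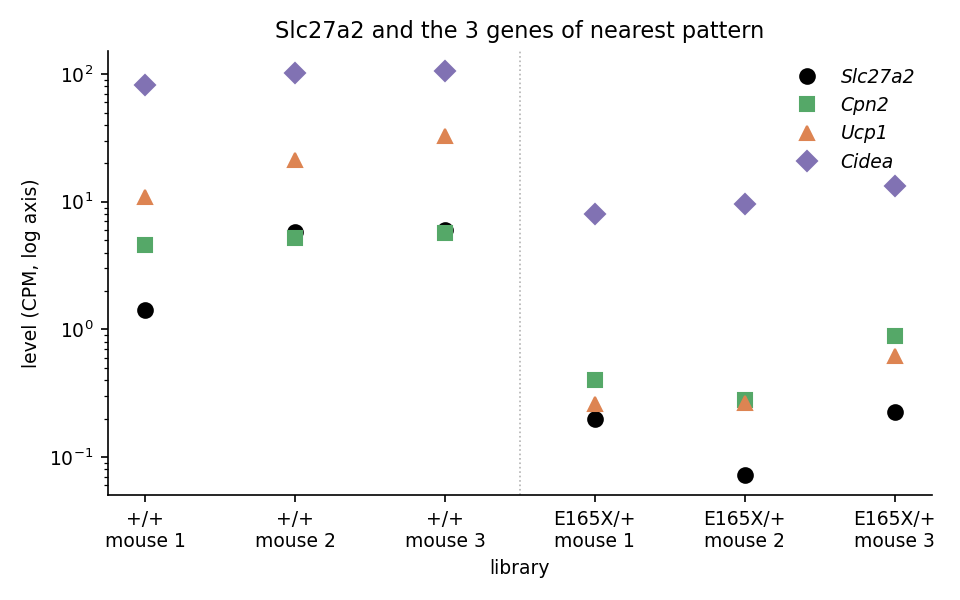
Level (CPM, logarithmic axis) of *Slc27a2*, *Cpn2*, *Ucp1*, and *Cidea* in each library, with the *Ebf2+/+* mice left and the *Ebf2E165X/+* mice right of the dotted line. All 4 genes lie lower in *Ebf2E165X/+* mice without overlap, and *Slc27a2* is the lowest of them in 4 libraries and slightly above *Cpn2* in the other 2.

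Sequence upstream of the start site was available from RefSeq (GRCm38.p6) for 6 of the 10 genes, the 4 *Slc27a* genes, *Cd36*, and *Fabp3*. The 250 bases before the start were searched on both strands for AGGTCA, the half-site of nuclear receptors such as the PPARs, and for TCCCNNGGGA, the palindrome of EBF proteins in which N is any base. AGGTCA was found for *Slc27a2* and *Cd36* and is present in 14% of 32851 such windows, so that it is common. The EBF palindrome was found for none of the 6 genes and is present in 0.779% of windows, which says only that these letters are not in these windows. The matches of *Slc27a2*, with the clearest difference between the genotypes, and of *Cd36*, with overlapping groups, are shown with 12 bases on each side, read in the direction of the gene, with the half-site (as its reverse complement TGACCT) in capitals. The *Slc27a2* match begins 220 bases before the RefSeq start, at chr2:126552792-126552821 on the plus strand, in a stretch that GENCODE annotates as 5′ UTR of a longer transcript. The *Cd36* match begins 228 bases before a RefSeq start that lies within the annotated span of the gene, at chr5:17836107-17836136 on the minus strand. The 6 genes had 8 such windows between them. A match of letters is not evidence of binding.
*Slc27a2*: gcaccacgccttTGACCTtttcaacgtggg
*Cd36*: ctctgcactttaTGACCTgagattttcagg

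Of the binding proteins, none passed the test, and they differed from each other in which library decided their values. *Fabp4* (ENSMUSG00000062515, chr3:10204088-10208576, minus strand) took 94.9% to 97.6% of the counts of *Fabp3* to *Fabp5* in every library. Its level was 6703, 7524, and 5395 CPM in *Ebf2+/+* mice and 6043, 4851, and 3788 CPM in *Ebf2E165X/+* mice. The groups overlapped only through the first *Ebf2E165X/+* mouse and the third *Ebf2+/+* mouse. The edgeR estimate of the log2 fold change was −0.42 (SE 0.26, 95% interval −1.03 to 0.19, adjusted *P* = 0.783 from edgeR) and −0.26 without the third *Ebf2E165X/+* mouse.

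*Fabp5* (ENSMUSG00000027533, chr3:10012548-10016607, plus strand) encodes the binding protein first described in keratinocytes and also made by adipocytes, macrophages, and endothelium. It was measured at 359, 165.3, and 183 CPM in *Ebf2+/+* mice and 192, 158, and 131 CPM in *Ebf2E165X/+* mice. The first *Ebf2+/+* mouse was far above the other 5, which lay within 131 to 192 CPM. The log2 fold change was −0.55 (SE 0.30, 95% interval −1.25 to 0.14, adjusted *P* = 0.783 from edgeR), −0.13 without the first *Ebf2+/+* mouse, and −0.43 without the third *Ebf2E165X/+* mouse. The first *Ebf2+/+* mouse also had the most of 6 epithelial markers, whose sums were 76.9, 4.37, and 40.9 CPM in *Ebf2+/+* mice and 33.0, 3.93, and 8.44 CPM in *Ebf2E165X/+* mice. Most of the 76.9 CPM was the keratin gene *Krt5*, at 50.3 CPM. The keratin genes *Krt8* and *Krt18* went the other way, lowest in that mouse (0.0749 and 0.0916 CPM) and highest in the third *Ebf2E165X/+* mouse (2.25 and 1.01 CPM). The part of epithelium in the *Fabp5* values was not tested. Transcripts of 5 other genes, among them *Gm6166* and *Fabp5l2*, matched it at 90% identity or more over at least 200 bases, and their counts came to at most 0.294% of those of *Fabp5* in any library.

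*Fabp3* (ENSMUSG00000028773, chr4:130308595-130315463, plus strand) encodes the binding protein of heart and skeletal muscle, which is also made by brown fat. It had 3.70, 21.0, and 11.4 CPM in *Ebf2+/+* mice and 5.65, 1.39, and 68.6 CPM in *Ebf2E165X/+* mice. The *Ebf2E165X/+* values differed 49.2-fold from lowest to highest and enclosed all *Ebf2+/+* values. The log2 fold change was 1.07 (SE 1.24, 95% interval −1.81 to 3.95, adjusted *P* = 0.811 from edgeR), the widest interval of the 10 genes. Without the third *Ebf2E165X/+* mouse it was −1.77 (adjusted *P* = 0.861 from edgeR), so that 1 library set the direction. The muscle markers, of which *Myh4* was the most abundant, summed to 1706, 7067, and 2686 CPM in *Ebf2+/+* mice and 2927, 691, and 40802 CPM in *Ebf2E165X/+* mice. The libraries with the most and the least *Fabp3* were also those with the most and the least of these markers, and the second *Ebf2+/+* mouse was second in both. The part of muscle in the *Fabp3* values was not tested. The pseudogene *Fabp3-ps1* had counts of at most 1.35% of those of *Fabp3*, and the opposite-strand gene *Zcchc17*, which overlaps 81 exonic bases of *Fabp3*, had 2934 to 4093 counts in all libraries.

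**Figure D4:**
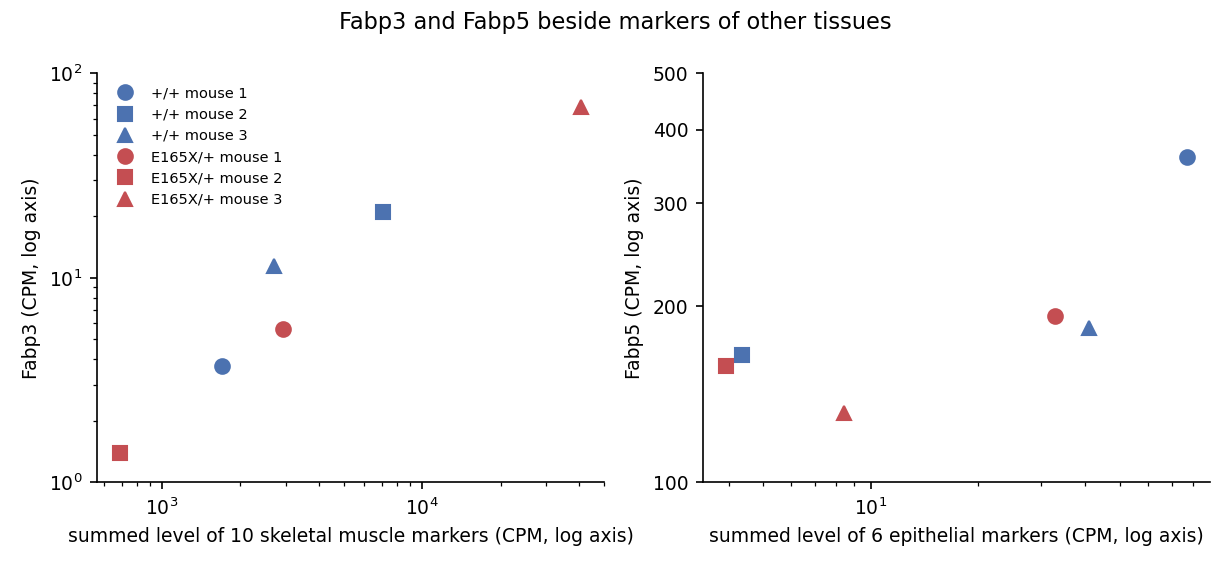
Left, *Fabp3* against the summed level of 10 skeletal muscle markers, and right, *Fabp5* against the summed level of 6 epithelial markers, in the 6 libraries (CPM, logarithmic axes, blue for *Ebf2+/+* and red for *Ebf2E165X/+* mice). The third *Ebf2E165X/+* mouse lies at 68.6 CPM of *Fabp3* and 40802 CPM of muscle markers, and the first *Ebf2+/+* mouse at 359 CPM of *Fabp5* and 76.9 CPM of epithelial markers.

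The libraries differed in the same way for many of the 10 genes. Among *Ebf2E165X/+* mice, the third had the lowest value for 8 of the 10 genes, and among all genes with a mean of at least 1 CPM it was lowest for 41.7%. The first *Ebf2E165X/+* mouse had the highest value for 8 of the 10 genes, against 28.5% of all such genes. With that mouse left out, 7 of the 10 genes lay lower in *Ebf2E165X/+* mice without overlap in place of 1, beside 10.3% of all genes in the same comparison of 2 with 3 mice. In the *Ebf2+/+* group the first mouse was highest for 7 of the 10 genes, against 41.7% of all such genes.

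To separate the uptake genes from the amount of adipocyte RNA in a library, *Cd36*, *Lpl*, *Fabp4*, and *Slc27a1* were set against the 10 adipocyte markers of the same library. These markers, of which *Car3* was the most abundant, summed to 21351, 22219, and 20032 CPM in *Ebf2+/+* mice and 20920, 19903, and 16103 CPM in *Ebf2E165X/+* mice. *Lpl* counts came to 32.3%, 28.6%, and 31.7% of the summed marker counts in *Ebf2+/+* mice and to 31.6%, 29.96%, and 25.1% in *Ebf2E165X/+* mice. *Cd36* counts came to 12.2%, 11.4%, and 11.3% and to 12.5%, 11.0%, and 10.3%. In both ratios the groups overlapped, and the third *Ebf2E165X/+* mouse was lowest. That position rested on *Car3*, which made up 7948 of the 16103 CPM of markers in that mouse. With *Car3* left out, the third *Ebf2E165X/+* mouse was lowest in neither ratio. The difference in mean log2 ratio was −0.099 for *Lpl* and −0.047 for *Cd36*, and it was −0.063 and −0.011 with *Car3* left out of the markers. Without the third *Ebf2E165X/+* mouse these differences were −0.00135 for *Lpl* and 0.013 for *Cd36*. *Fabp4* counts came to 31.4%, 33.9%, and 26.9% in *Ebf2+/+* mice and to 28.9%, 24.4%, and 23.5% in *Ebf2E165X/+* mice. *Slc27a1* counts came to 2.12%, 1.72%, and 1.998% and to 2.66%, 1.52%, and 1.36%, with the widest spread in the *Ebf2E165X/+* group. *Gpihbp1*, as an endothelial gene, was set against 10 endothelial markers led by *Pecam1* and came to 4.55%, 4.297%, and 4.55% and to 4.63%, 4.19%, and 4.12%. Two-sided exact permutation tests of the log2 ratios gave *P* = 0.5 for *Lpl*, 0.7 for *Cd36*, 0.2 for *Fabp4*, 0.7 for *Slc27a1*, and 0.4 for *Gpihbp1*, and the smallest adjusted value among the 8 shares and ratios compared was 0.8.

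The other genes of the pathway were taken from 4 lists with 55 genes, all of which had counts. None of them was called by edgeR or DESeq2 (the smallest adjusted *P* from edgeR was 0.783), and 4 had an unadjusted *P* under 0.05 from edgeR, all lower in *Ebf2E165X/+* mice (4 of 55, beside 3.09% of all genes in that direction). Log2 fold changes were negative for 40 of the 55, beside 47.9% of all genes and 43% of those with a mean of at least 1 CPM, with a median of −0.11. Without the third *Ebf2E165X/+* mouse 33 of the 55 were negative (51.1% of all genes), with a median of −0.073. In the list of lipase control and lipoprotein receptors, 18 of 19 genes had negative values, with a median of −0.17. Without the third *Ebf2E165X/+* mouse 13 of 19 were negative, with a median of −0.12. *Lmf1*, an endoplasmic reticulum factor needed for lipase maturation, was measured at 21.8, 21.3, and 19.9 CPM in *Ebf2+/+* mice and 18.4, 17.6, and 16.8 CPM in *Ebf2E165X/+* mice. The groups did not overlap, with a log2 fold change of −0.25 (SE 0.083), or −0.22 without the third *Ebf2E165X/+* mouse. *Lipg*, endothelial lipase, was measured at 10.4, 7.72, and 10.5 CPM in *Ebf2+/+* mice and 7.06, 6.71, and 7.67 CPM in *Ebf2E165X/+* mice. *Apoe*, the most abundant gene of the list, ranged from 1671 to 2593 CPM with overlapping groups.

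The list of genes around caveolae and the handling of CD36 had 9 of 15 negative log2 fold changes and a median of −0.026, which was −0.061 without the third *Ebf2E165X/+* mouse. *Dbi*, the acyl-CoA binding protein, was measured at 578, 548, and 431 CPM in *Ebf2+/+* mice and 393, 445, and 326 CPM in *Ebf2E165X/+* mice. The groups overlapped through 1 mouse of each genotype, and the log2 fold change was −0.42 (SE 0.16), or −0.31 without the third *Ebf2E165X/+* mouse. *Cav1*, the main caveolin of adipocytes and endothelium and the most abundant gene of that list, ranged from 1025 to 1471 CPM. In the list of endothelial fatty acid transport, 10 of 12 genes were negative with a median of −0.27, and 8 were negative without the third *Ebf2E165X/+* mouse, with a median of −0.16. *Vegfb*, a growth factor known to act on fatty acid transport by endothelium, was measured at 47.8, 50.7, and 42.6 CPM in *Ebf2+/+* mice and 37.4, 37.8, and 40.5 CPM in *Ebf2E165X/+* mice. These groups did not overlap, with a log2 fold change of −0.29 (SE 0.083), or −0.32 without that mouse. *Kdr*, the main signalling receptor for VEGFA and the most abundant gene of the list, ranged from 160 to 257 CPM. The 9 other members of the *Slc27* and *Fabp* families were scarce, and 6 of them (*Slc27a5*, *Fabp1*, *Fabp2*, *Fabp6*, *Fabp9*, and *Fabp12*) had at most 26 counts in any library. *Pmp2*, the binding protein of myelin, was the most abundant of them with 1.78 to 5.80 CPM, 3 of the 9 had negative log2 fold changes, and none had an unadjusted *P* under 0.05. Their median of 0.30 rests mostly on those low counts.

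**Figure D5:**
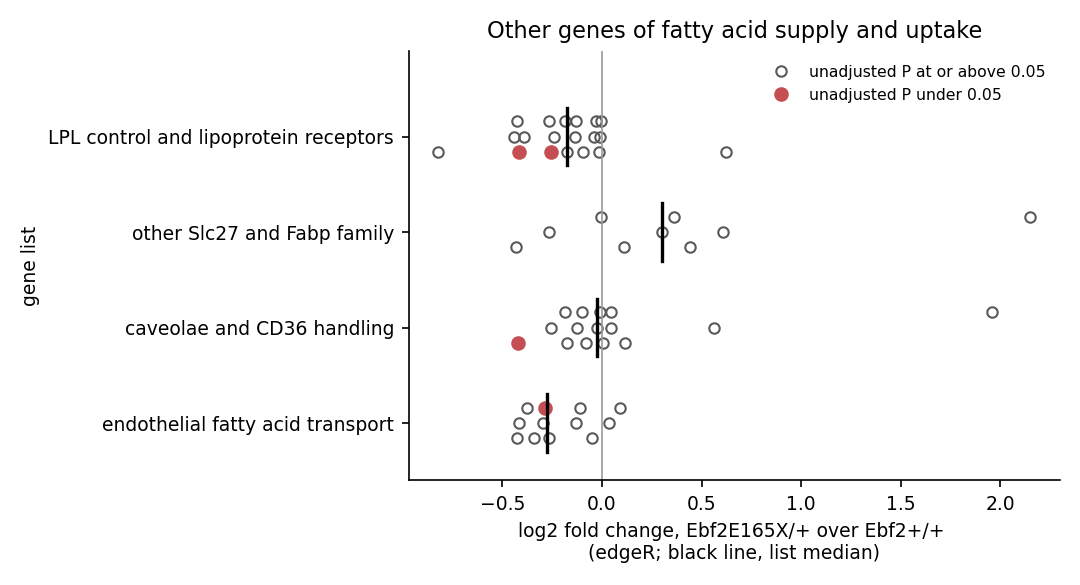
Log2 fold change of *Ebf2E165X/+* over *Ebf2+/+* mice (edgeR) for 55 other genes of fatty acid supply and uptake in 4 lists, with a black line at each median and filled red points for an unadjusted *P* under 0.05. The 4 red points lie left of 0, and the medians run from −0.27 to 0.30.

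*Lpl* and *Fabp4*, the most abundant genes of the capillary and the cytoplasmic step, were also compared with all other genes for likeness over the 6 libraries. The nearest to *Lpl* were *Smoc1* (a secreted matricellular protein), *Lyplal1* (a lysophospholipase-like protein), and *Lmo1* (a LIM domain protein), with root mean square differences of 0.036, 0.041, and 0.055 in log2 CPM. *Smoc1*, at 175, 156, and 158 CPM in *Ebf2+/+* mice and 170, 151, and 105 CPM in *Ebf2E165X/+* mice, was likewise lowest in the third *Ebf2E165X/+* mouse. *Cd36* was the 16th and *Gpihbp1* the 56th gene in order of likeness to *Lpl* among 14965 genes. The nearest to *Fabp4* were *Fah* (an enzyme of tyrosine breakdown), *Zfp697* (a zinc finger protein), and *Lpar6* (a receptor for lysophosphatidic acid), with differences of 0.081, 0.085, and 0.086. *Cd36* was the 179th and *Lpl* the 239th gene in order of likeness to *Fabp4*.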

How the data were processed

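RNA of IWAT from 3 *Ebf2+/+* and 3 *Ebf2E165X/+* mice was measured. The deposited values are expected counts per gene from the authors, not scaled for library size. The submitters' processing notes name cutadapt 4.8, STAR 2.7.8a, RSEM 1.3.3, and GRCm38. The paper's supplement describes 3′ mRNA libraries, the labels another kit, and strand is not given in the sources used here. All values were whole, so rounding changed none. Genes counted at least once were fitted with edgeR 4.0.16 (TMM, quasi-likelihood test, genotype only, Benjamini-Hochberg over 32664 genes). The adjusted *P* under 0.05 and linear fold above 1.5 are the thresholds of the study's supplement (its main text gives the fold on the log2 scale), and its tool, DESeq2 (1.42.0 here), was an alternative beside limma-voom (3.58.1), other size factors, filters, a prior count of 2, a replicate block, and each mouse left out. Shares, ratios, and summed markers were compared with exact permutation tests. P values of the fits set the difference between genotypes against the spread between mice. Those of the permutation tests compare it with other groupings of the 6 libraries. Members, lists, and tests were chosen with earlier results of these data known. Genes named are the 10 members, *Ebf2*, list genes with an unadjusted *P* under 0.05, the most abundant gene of each list, and the 3 nearest in pattern to *Slc27a2*, *Lpl*, and *Fabp4*. *Adipoq*, *Plin1*, *Ttr*, *Fga*, *Krt8*, *Krt18*, *Cox8b*, *Cox7a1*, scarce *Slc27* and *Fabp* genes, and genes overlapping or resembling members were named to explain a list or a limit. Coordinates are those of GENCODE M21 (GRCm38), relatives were found with blastn, and fits were tested on simulated data. A gene of the lists is not reported here.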

Additional observations from a re-analysis of the deposited data

How the results depend on the processing

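At most 1 of the 10 genes was called in any fit, namely 1 (*Slc27a2*) with DESeq2 with or without independent filtering (adjusted *P* = 3.72e-07 and 7.52e-07) and 1 at an unadjusted *P* under 0.05. No pathway gene was called in any fit at an adjusted *P* under 0.05. With each mouse left out in turn, 1 to 7 genes were without overlap (17.8% to 21.6% of all genes, in either direction), and the difference in the *Fabp3* share ran from −0.117 to 0.729 percentage points, in the *Fabp5* share from −1.003 to 0.466, and in the log2 ratio to adipocyte markers from −0.17 to −0.00135 (without the third *Ebf2E165X/+* mouse) for *Lpl*, from −0.12 to 0.013 for *Cd36*, and from −0.43 to 0.051 for *Slc27a1*. The positive ratios and the negative *Fabp3* share came without the third *Ebf2E165X/+* mouse, the positive *Fabp5* share without the first *Ebf2+/+* mouse. With mice left out, the log2 fold change of *Slc27a1* ran from −0.66 to 0.060 and that of *Fabp3* from −1.77 to 1.74, with 0.060 and −1.77 without the third *Ebf2E165X/+* mouse, and that of *Fabp3* was −0.20 with limma-voom. *Slc27a3* turned to −0.0016 with DESeq2 (both settings), −0.0034 with limma-voom, −0.0074 without mitochondrially encoded genes, −0.0013 with DESeq2's size factors, and ran from −0.094 to 0.14 with mice left out. With mice left out, the difference in summed markers ran from −2011 (without the third *Ebf2E165X/+* mouse) to 18045 CPM for muscle, from −560 (without the first *Ebf2E165X/+* mouse) to 716 CPM for erythroid cells, with −155 CPM without the second *Ebf2+/+* mouse, and from −3.70 to 0.627 CPM (without the first *Ebf2+/+* mouse) for hepatocytes, with 0.066 as a mean log2 CPM. The causes were not tested. Deviations of same-numbered mice had correlations of −0.16, 0.073, and −0.46 over 14966 genes, and those of differently numbered mice ran from −0.77 to 0.80. With so few mice, these values cannot show whether same-numbered mice shared a litter or batch, which was not tested. Under the replicate block 0 members were called, 8 were lower, and *Slc27a2* was −4.57 (adjusted *P* = 0.882 from edgeR). Counting error is small for the abundant genes but not for *Slc27a2* in *Ebf2E165X/+* mice or for scarce list genes such as *Fabp2* and *Fabp6*, and precision is limited by how few mice there are.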

Other observations

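Markers of further cell types that can hold fatty acid uptake genes were summed in each library as well. Macrophage markers, led by *Lyz2*, summed to 1941, 1490, and 1921 CPM in *Ebf2+/+* mice and 1940, 1848, and 2049 CPM in *Ebf2E165X/+* mice. Endothelial markers summed to 1514, 1457, and 1445 CPM and to 1380, 1459, and 1165 CPM. B cell markers, led by *Ms4a1*, summed to 352, 557, and 563 CPM in *Ebf2+/+* mice and to 582, 661, and 608 CPM in *Ebf2E165X/+* mice, so that all *Ebf2E165X/+* values were higher. Progenitor markers, led by *Dcn*, summed to 1697 to 2272 CPM, Schwann cell markers, led by *Pmp22*, to 636 to 806 CPM, and erythroid markers, led by *Hbb-bs*, to 2005 to 4558 CPM, with overlapping genotypes in each. Two-sided exact permutation tests gave the B cell and the brown and beige sums the smallest possible *P* of 0.1, and the smallest adjusted value over 11 lists was 0.55.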
